A study of Mus musculus with 3 samples.

Results

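The cell cycle genes described here were 42 mouse genes, chosen by name: 19 that cells use to copy their DNA in S phase and 23 that they use to enter and complete mitosis (G2M phase). All 42 were listed in each of the 3 count tables, out of 27886 genes listed in any table, and all reached the low limit of 1 CPM (counts per 1000000 counts of a sample). They were followed as CPM per culture, as the share of cells that carry them, and within cells split by Pou5f1, a gene of pluripotent cells, and Col1a2, a collagen gene of fibroblasts.

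The 3 cultures were male F1 cells of the cross C57BL/6 x CAST/EiJ. The mESC were embryonic stem cells kept without feeder cells in 2i medium with LIF. The CPCC were cardiac precursor cultures, made by dissociating embryoid bodies grown in medium with ascorbic acid. Their cells were then passaged in medium with EGF and Fgf2. The CB were cardiac bodies, picked because they were beating, and were also grown in medium with ascorbic acid. There was 1 sample for each culture, so no difference between cultures has a replicate check, and no test or p-value is given. The cells of a sample fell into pools of libraries, 3 in mESC, 2 in CPCC and 3 in CB, whose link to clones or culture dishes is not given in the sources used here. Pools were therefore used to show spread and not as replicates. Chambers of the microfluidic chip were inspected under a microscope in the study, but which columns held more than 1 cell cannot be read from the tables.

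A dividing cell first licenses its origins of replication, copies its DNA, and then condenses and separates the copies. The genes for these steps are switched on in order: E2F factors drive S phase genes, and the MuvB complex, with B-Myb and Foxm1, drives G2M genes through promoter elements called CHR. Pluripotent stem cells cycle almost without a resting phase, whereas many cells leave the cycle as they differentiate and heart muscle cells largely stop dividing after birth. Transcripts of G2M genes are scarce in resting cells and peak shortly before division.

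There were 215 cells of mESC, 175 of CPCC and 232 of CB, with a median of 1528316, 1437414 and 1397869 counts per cell. The totals per cell ran from 4 to 8105511, and 12 mESC, 6 CPCC and 13 CB cells had under 100000 counts. No column name was shared between tables and 0 cells repeated the member counts of another cell. Marker lists were used to see which cells the cultures held, a list being carried when 3 of its genes reached 10 CPM in a cell. The pluripotent list was carried by 213 mESC, 105 CPCC and 1 CB cells. The cardiomyocyte list, which holds genes of the heart muscle contractile apparatus, was carried by 11 CPCC and 18 CB cells, so it was absent from most cells of the culture labelled as mature cardiac cells. The 13 genes of that list summed to 631 CPM in CB, with 25.4 to 1428 CPM across pools. In CB, the fibroblast list was carried by 126 cells and the epithelial list by 85. A cell can carry several lists, and some of these genes are also used by stem cells, as 181 mESC cells carried the epithelial list and 34 the cardiomyocyte list.

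Promoters were searched because the members moved together, and because 3 short elements are known for these genes. Of the 42 members, 36 had an entry in the RefSeq promoter table (GRCm38.p6, 250 bases before to 50 bases after each start), 17 S members and 19 G2M members with 19 windows each. The missing members were Mcm4, Gins2, Ccna2, Aurkb, Tpx2 and Kif20a. The CHR letters (TTTGAA or TTTAAA, either strand) were found in 17 of 19 G2M windows (89.5%) and 5 of 19 S windows (26.3%), against 27.6% of 32851 windows of all genes. The CCAAT box (CCAAT, either strand) was found in 89.5% of G2M windows, 63.2% of S windows and 37.4% of all windows. Both stood together in 84.2% of G2M windows, 21.1% of S windows and 10.7% of all windows. E2F letters (TTTCCCGC, TTTGGCGC, TTTCGCGC or TTTGCCGC, either strand) were found in 31.6% of S windows, 5.26% of G2M windows and 2.26% of all windows. By these shares the CHR letters were most frequent in the G2M group and the E2F letters in the S group. A match of letters is a description of the window and does not show that a factor binds there.

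Of the members with 1 promoter entry, the sequences of 5 are printed to show these elements. No S member with a small fall in CB is among them. They are the 250 bases before the RefSeq start, 5′ to 3′ on the gene's strand, in the C57BL/6J reference sequence, with every match in capitals. Mcm10 (chr2:5012792-5013041, minus strand) had the largest fall of the S members, Aurka (chr2:172370571-172370820, minus strand) the largest of the G2M members, and Mki67 (chr7:135716380-135716629, minus strand) was the member with a positive ratio. Mcm5 (chr8:75109259-75109508, plus strand) and Plk1 (chr7:122159185-122159434, plus strand) were picked for their matches and lie just upstream of the annotated genes.
Mcm10: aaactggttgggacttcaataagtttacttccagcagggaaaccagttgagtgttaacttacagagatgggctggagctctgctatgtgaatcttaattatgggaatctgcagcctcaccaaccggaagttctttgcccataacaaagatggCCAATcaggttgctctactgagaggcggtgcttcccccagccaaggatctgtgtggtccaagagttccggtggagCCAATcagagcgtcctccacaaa
Mcm5: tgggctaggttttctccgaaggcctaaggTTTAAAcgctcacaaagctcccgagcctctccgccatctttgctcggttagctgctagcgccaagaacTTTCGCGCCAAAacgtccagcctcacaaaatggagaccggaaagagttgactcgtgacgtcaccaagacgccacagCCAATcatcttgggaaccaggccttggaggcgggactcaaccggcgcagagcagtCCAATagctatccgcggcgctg
Aurka: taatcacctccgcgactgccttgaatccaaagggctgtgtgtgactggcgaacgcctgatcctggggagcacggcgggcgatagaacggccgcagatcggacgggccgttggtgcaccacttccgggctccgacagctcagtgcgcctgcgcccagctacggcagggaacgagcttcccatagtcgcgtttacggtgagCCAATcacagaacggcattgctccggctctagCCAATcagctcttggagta
Plk1: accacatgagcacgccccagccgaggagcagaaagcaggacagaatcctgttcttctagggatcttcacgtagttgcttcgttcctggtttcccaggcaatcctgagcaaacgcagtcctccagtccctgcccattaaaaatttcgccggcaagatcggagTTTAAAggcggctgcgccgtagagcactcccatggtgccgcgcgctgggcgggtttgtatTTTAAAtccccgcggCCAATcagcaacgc
Mki67: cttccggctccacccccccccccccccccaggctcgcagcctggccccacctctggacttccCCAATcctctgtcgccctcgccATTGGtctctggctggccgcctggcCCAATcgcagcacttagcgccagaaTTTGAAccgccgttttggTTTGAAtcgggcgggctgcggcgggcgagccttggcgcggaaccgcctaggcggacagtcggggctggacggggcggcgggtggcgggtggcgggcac
The Mcm5 stretch holds 2 E2F matches that overlap in TTTCGCGCCAAA, together with 1 CHR and 2 CCAAT boxes. The Plk1 stretch holds 2 CHR matches and 1 CCAAT box close to the start, and the Mki67 stretch 2 CHR matches and 3 CCAAT boxes. The Aurka stretch holds 2 CCAAT boxes, and the CHR match of its window is not within the printed bases. The Mcm10 stretch holds 2 CCAAT boxes and neither of the other elements.

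The S phase members were highest in mESC, intermediate in CPCC and lowest in CB. Their summed level was 5306, 3397 and 1785 CPM in mESC, CPCC and CB, with 4928 to 5926 CPM across the mESC pools, 4405 and 2453 CPM in the CPCC pools and 1278, 3176 and 728 CPM in the CB pools. Without CB pool 2 the CB sum was 894 CPM. Against mESC, 4 of 19 were at least 2-fold lower in CPCC and 14 of 19 in CB, and none was 2-fold higher in either. The CPCC count was 13 without CPCC pool 1 and 0 without CPCC pool 2. Of all genes tested, 8.36% were at least 2-fold lower and 17.5% at least 2-fold higher in CPCC, and 14.0% lower and 30.8% higher in CB. The median log2 ratio of (CPM + 1) was -0.70 for the S members in CPCC and -1.83 in CB, against -0.01 and 0.29 for all genes. In CPCC the S median was -1.32 without CPCC pool 1 and -0.30 without CPCC pool 2. The S median in CB was -3.11 without CB pool 2 and -1.23 without CB pool 3, and the other log2 ratios of CB to mESC given for single members shift likewise, by over 1.5-fold for 39 of the 42 without pool 2 and 33 without pool 3. Every CB pool lay below every mESC pool for 15 of the 19, against 20.7% of all genes tested.

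The 6 subunits of the MCM helicase, which unwinds DNA at the replication fork, were all at least 2-fold lower in CB than in mESC. Their log2 ratios ran from -2.17 (Mcm3) to -1.51 (Mcm6). Of all genes tested, 14.0% were that much lower. Mcm5 (chromosome 8, 75109569 to 75128439) stood at 442, 231 and 269 CPM in the mESC pools, at 343 and 91.5 CPM in the CPCC pools and at 44.6, 143 and 25.1 CPM in the CB pools. The CB pools lay below every mESC pool, while CPCC pool 1 lay within the mESC range and CPCC pool 2 below it. Mcm6 stood at 673, 576 and 599 CPM in the mESC pools, 480 and 280 CPM in the CPCC pools and 178, 326 and 127 CPM in the CB pools, with the CPCC pools below the mESC pools as well.

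Members that license and fire origins included those that fell furthest in CB. Mcm10, which helps start the fork, had 115, 83.8 and 105 CPM in the mESC pools, 73.0 and 18.8 CPM in the CPCC pools, and 4.51, 27.9 and 0.0834 CPM in the CB pools. Its log2 ratio of CB to mESC was -2.98, the lowest of all members, and the highest CB pool lay below the lowest mESC pool. Cdc6, which loads the MCM helicase, had 158, 137 and 97.2 CPM in the mESC pools and 8.99, 50.7 and 1.29 CPM in the CB pools, with a log2 ratio of -2.53. Cdc45, a partner of the moving helicase, had a log2 ratio of -2.10 and Cdt1, the other MCM loader, -1.40. Gins2, a subunit of the GINS complex, was the S member with the ratio nearest to 0, at -0.35. Its CB pools (57.3, 186 and 20 CPM) lay on both sides of its mESC pools (135, 92.7 and 131 CPM), and its ratio was 0.30 without CB pool 3.

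Members for nucleotides and the fork were mixed. Rrm2, the regulated subunit of ribonucleotide reductase, stood at 554, 595 and 530 CPM in the mESC pools, 446 and 225 CPM in the CPCC pools and 85.5, 225 and 11.7 CPM in the CB pools, with a log2 ratio of CB to mESC of -2.36. Its large subunit Rrm1 had -0.81 and was the S member with a positive ratio in CPCC, at 0.10. The CB pools of Rrm1 (152, 192 and 104 CPM) still lay below the mESC pools (303, 255 and 214 CPM). Pcna, the sliding clamp of the polymerase, had 454, 513 and 533 CPM in the mESC pools, 404 and 217 CPM in the CPCC pools and 121, 325 and 85.3 CPM in the CB pools, and its log2 ratio was -1.43. Tyms, which makes thymidylate, had a log2 ratio of -0.83, with CB pools of 101, 266 and 33.0 CPM and mESC pools of 269, 234 and 230 CPM, so that CB pool 2 lay within the mESC range. Fen1, a flap nuclease of the lagging strand, had -0.90.

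Of the members for repair, histone supply and chromatin assembly, Chaf1b of chromatin assembly factor had a log2 ratio of -1.83 and Ung, which removes uracil from DNA, -1.80. Ung was the lowest S member, at 23.8, 9.38 and 6.12 CPM in mESC, CPCC and CB. Slbp, which binds histone mRNA, stood at 396, 429 and 473 CPM in the mESC pools, 422 and 229 CPM in the CPCC pools and 212, 349 and 159 CPM in the CB pools. Its log2 ratio was -0.83, short of 2-fold, though no CB pool reached the lowest mESC pool. The exact 95% Poisson interval of Ung in CB was 5.86 to 6.39 CPM, while its pools ran from 1.45 to 12.7 CPM. This interval counts reads, which are not independent molecules, so it understates the error of sampling molecules.

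**Figure D1:**
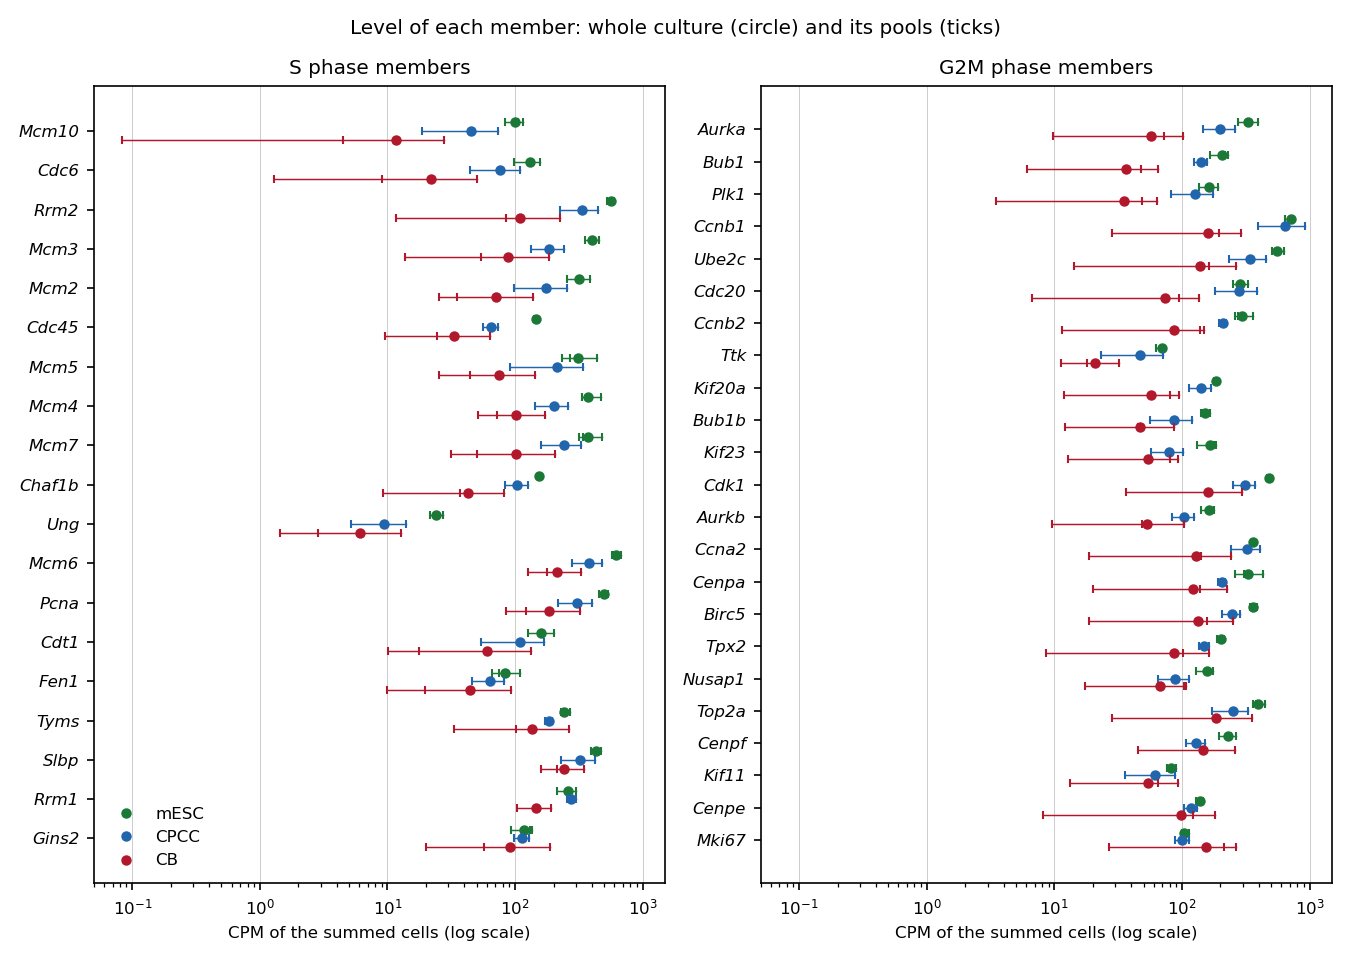
Level of the 42 members in CPM on a log axis, S members on the left and G2M members on the right, ordered by their fall from mESC to CB. Circles are whole cultures, ticks are pools and lines span the pools. Mcm10 and Aurka lie at the top with the largest falls, Gins2 and Mki67 at the bottom, and the CB lines are the longest.

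The G2M members followed the same order of cultures, with sums of 6117, 4384 and 2157 CPM in mESC, CPCC and CB. The CPCC pools had 5522 and 3319 CPM and the CB pools 2592, 3888 and 379 CPM, and the CB sum was 1048 CPM without pool 2 and 3472 CPM without pool 3. At least 2-fold lower levels than in mESC were found for 1 of 23 in CPCC (Kif23) and 19 of 23 in CB, and none was 2-fold higher. Of all genes 8.36% and 14.0% were that much lower, so the CPCC count was not above that share. The median log2 ratio was -0.55 in CPCC and -1.58 in CB, and for CB -2.54 without pool 2 and -0.93 without pool 3. For CPCC it was -0.94 without CPCC pool 1 and -0.32 without CPCC pool 2. All 23 lay below 0 in CPCC and 22 in CB, the exception being Mki67. With the same weight for each cell, 20 lay below 0 in CPCC, and Mki67, Cdc20 and Ccnb1 had 0.38, 0.10 and 0.03. The CB pools lay below the mESC pools for 19 of the 23, against 20.7% of all genes. Pool 3 of CB stood apart from the others with the lowest level of each of these 23 members, and without it 10 of the 23 were at least 2-fold lower than in mESC. Without CPCC pool 1, 9 of the 23 were at least 2-fold lower in CPCC than in mESC, and without CPCC pool 2 none was.

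Cdk1, the kinase that drives mitosis, had 502, 462 and 479 CPM in the mESC pools, 376 and 250 CPM in the CPCC pools and 160, 295 and 36.2 CPM in the CB pools, with a log2 ratio of CB to mESC of -1.58. Its cyclin Ccnb1 had the highest summed level of all members in mESC and CPCC. Ccnb1 stood at 731, 744 and 647 CPM in the mESC pools, 921 and 392 CPM in the CPCC pools and 194, 290 and 28.2 CPM in the CB pools, with a log2 ratio of -2.14. Ccna2, the cyclin of S phase and G2, had 365, 354 and 353 CPM in the mESC pools, 407 and 244 CPM in the CPCC pools and 142, 241 and 18.6 CPM in the CB pools, with a log2 ratio of -1.47, and Ccnb2 one of -1.76. For these 4 genes every CB pool lay below every mESC pool, against 20.7% of all genes tested.

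All 6 mitotic kinases were at least 2-fold lower in CB than in mESC, against 14.0% of all genes tested. Aurka, the kinase of the spindle poles, fell most of the G2M members, by 2.51: it had 344, 275 and 396 CPM in the mESC pools, 258 and 146 CPM in the CPCC pools and 72.4, 103 and 9.75 CPM in the CB pools. Bub1, a checkpoint kinase at kinetochores, fell by 2.46, with 167, 229 and 218 CPM in the mESC pools, 158 and 125 CPM in the CPCC pools and 47.7, 64.4 and 6.11 CPM in the CB pools. Plk1, which acts at spindle poles and kinetochores, had 192, 136 and 169 CPM in the mESC pools, 176 and 82.2 CPM in the CPCC pools and 48.2, 64.1 and 3.51 CPM in the CB pools, with a log2 ratio of -2.17. Aurkb, the kinase of the chromosomal passenger complex, had 169, 142 and 179 CPM in the mESC pools, 124 and 83.8 CPM in the CPCC pools and 48.9, 104 and 9.61 CPM in the CB pools, with a log2 ratio of -1.57. The checkpoint kinases Bub1b and Ttk had log2 ratios of -1.65 and -1.70. No CB pool reached the lowest mESC pool for any of the 6 kinases, which held for 20.7% of all genes tested.

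Cdc20, which activates the anaphase-promoting complex, had 332, 251 and 287 CPM in the mESC pools, 385 and 183 CPM in the CPCC pools and 95, 135 and 6.74 CPM in the CB pools. Cdc20 was thus close to its mESC level in CPCC, with a log2 ratio of -0.03, and had -1.96 in CB. Ube2c, the conjugating enzyme of that complex, stood at 555, 343 and 140 CPM in mESC, CPCC and CB. Of the spindle and midzone members, Kif20a, Kif23, Tpx2 and Nusap1 had log2 ratios of CB to mESC from -1.69 to -1.20. Kif11, the motor that separates spindle poles, had -0.59 and did not reach 2-fold. The passenger protein Birc5 had a log2 ratio of -1.41 and the centromeric histone Cenpa -1.43, but the kinetochore proteins Cenpe and Cenpf had -0.51 and -0.65. Cenpe had 129, 143 and 145 CPM in the mESC pools, 132 and 104 CPM in the CPCC pools and 123, 183 and 8.09 CPM in the CB pools. Kif11 had 76.6, 90.4 and 76.6 CPM, 88.0 and 36.0 CPM and 64.5, 93.5 and 13.2 CPM in the same order. For both, the CB pools lay on either side of the mESC pools, and without CB pool 3 their log2 ratios were 0.23 and 0.04.

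Top2a and Mki67, which organise mitotic chromosomes and are the usual marks of dividing cells, did not behave alike. Top2a, the topoisomerase that untangles DNA, had 362, 379 and 451 CPM in the mESC pools, 332 and 172 CPM in the CPCC pools and 186, 353 and 28.3 CPM in the CB pools. Its highest CB pool lay just under its lowest mESC pool, and its log2 ratio was -1.10. Mki67 (chromosome 7, 135689784 to 135716361), which coats chromosomes, had 101, 99.4 and 115 CPM in the mESC pools, 87.5 and 113 CPM in the CPCC pools and 212, 265 and 26.8 CPM in the CB pools. Its log2 ratio of CB to mESC was 0.56, with 2 CB pools above and 1 below all mESC pools. Across the 8 other scalings and filters the Mki67 ratio ran from 0.33 to 0.92, but it was -0.33 without CB pool 2 and 1.24 without CB pool 3, so its sign rested on pool 2. Per kilobase of exon, Mki67 was the lowest G2M member in mESC at 10.4 CPM per kb, where Ccnb1 had 286 and Pcna 330.

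Between CB and CPCC, 8 of 19 S members and 10 of 23 G2M members were at least 2-fold lower in CB and none 2-fold higher, against 9.44% lower and 21.3% higher of all genes. The median log2 ratio was -0.93 for either group and 0.22 for all genes. For S and G2M members it was -2.22 and -1.97 without CB pool 2, and -0.43 and -0.25 without CB pool 3. It was -0.46 and -0.64 without CPCC pool 1, and -1.35 and -1.23 without CPCC pool 2. Ccnb1 fell most, by 2.0, followed by Cdc20 and Bub1. All pools of CB lay below those of CPCC for 3 S and 8 G2M members, against 11.1% of all genes, so the S count was near that share. The counts at least 2-fold lower rested on the pools, with 18 S and 20 G2M members without CB pool 2 and 2 and 5 without CB pool 3. All pools of CPCC lay below those of mESC for 10 and 15 members, against 21.5% of all genes. The comparisons share cultures and are not independent of one another.

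The lower levels in CB came with fewer cells that carried the members. A cell was called G2M-positive when at least 5 of the 23 G2M members reached 10 CPM in it. This held for 212 of 215 mESC cells (98.6%, exact 95% interval 96.0 to 99.7%), 150 of 175 CPCC cells (85.7%, 79.6 to 90.5%) and 76 of 232 CB cells (32.8%, 26.8 to 39.2%). The intervals of the 3 cultures did not overlap. They cover counting error only, and the pools of CB differed by more: 20 of 69 cells (29.0%) were positive in pool 1, 53 of 78 (67.9%) in pool 2 and 3 of 85 (3.53%) in pool 3. The CPCC pools had 97.5% and 76.0%, and the mESC pools 98.9%, 97.4% and 100%. With every cell thinned to 430000 counts, which left 193, 157 and 210 cells, the shares were 100%, 87.3% and 32.9%.

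Most CB cells either carried nearly none of the G2M members or most of them. In CB, 76 cells had 0 of the 23 at 10 CPM, 156 had 4 or fewer, 9 had 5 to 11 and 67 had 12 or more, including 13 with all 23. In mESC, 201 cells had 12 or more and 98 had all 23, and in CPCC 129 and 64. The limit of 5 genes fell in the thin part of the CB distribution: 12 CB cells had 4 genes and 2 had 5. The median depth was 1635151 counts in positive and 1320806 counts in negative CB cells, and 1432862 and 1643954 counts in CPCC. In mESC, 5 positive cells and all 3 negative cells had under 10000 counts.

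**Figure D2:**
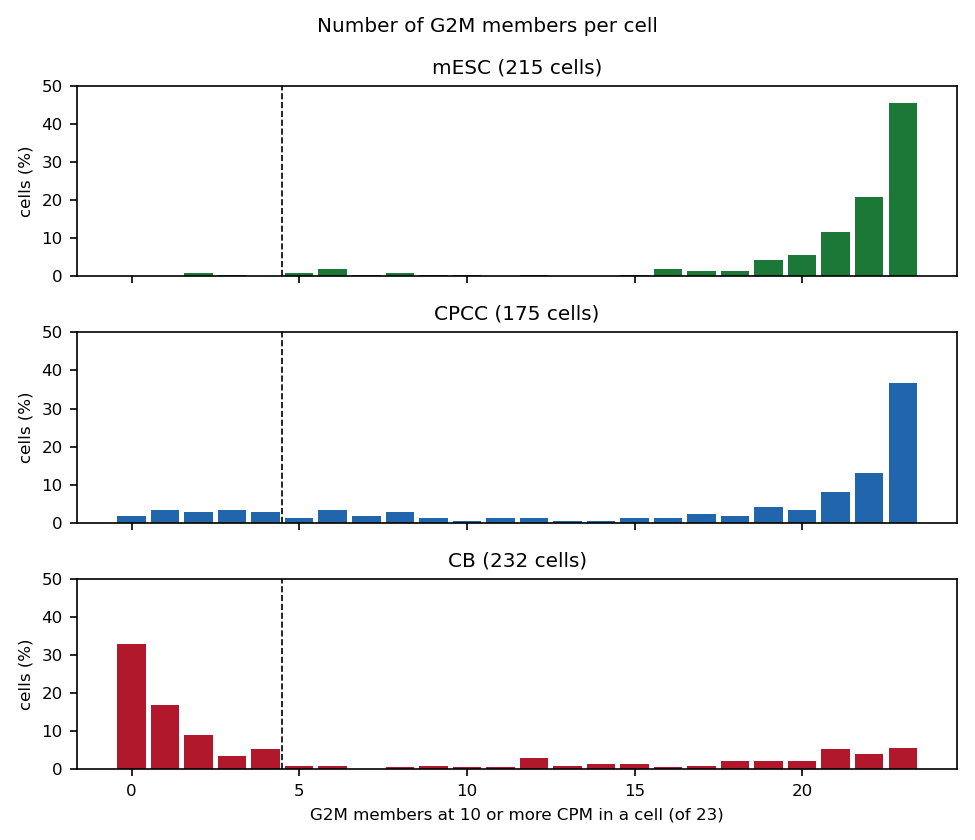
Number of G2M members at 10 or more CPM per cell, as the percentage of cells of each culture. The dashed line is the limit for a G2M-positive cell. In mESC and CPCC the tallest bar is at 23 members, with 98 and 64 cells, and in CB at 0, with 76 cells.

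S members were carried by more CB cells than G2M members. By the same limit, 5 of 19 S members at 10 CPM, 208 mESC cells (96.7%), 161 CPCC cells (92.0%) and 138 CB cells (59.5%) were S-positive. The CB pools differed, with 55.1%, 89.7% and 35.3%. The CPCC pools had 100% and 85.4%, and the mESC pools 97.8%, 94.8% and 97.9%. In CB, 71 cells carried both groups, 67 the S group only, 5 the G2M group only and 89 neither. The S-only cells numbered 13 in CPCC and 0 in mESC. Pcna and Slbp were at 10 CPM in 74.6% and 70.7% of CB cells, and Cdc6 and Ung in 11.6% each. Among G2M members the share in CB ran only from 16.4% (Ttk) to 41.4% (Cdk1). In G2M-negative CB cells, the S members summed to 1026 CPM, with 184 CPM from Mcm6, 179 CPM from Slbp and 104 CPM from Pcna. By pool this S sum was 857, 2574 and 637 CPM. The G2M members summed to 122 CPM in these cells, which were chosen for low G2M members, so that sum is a description.

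**Figure D3:**
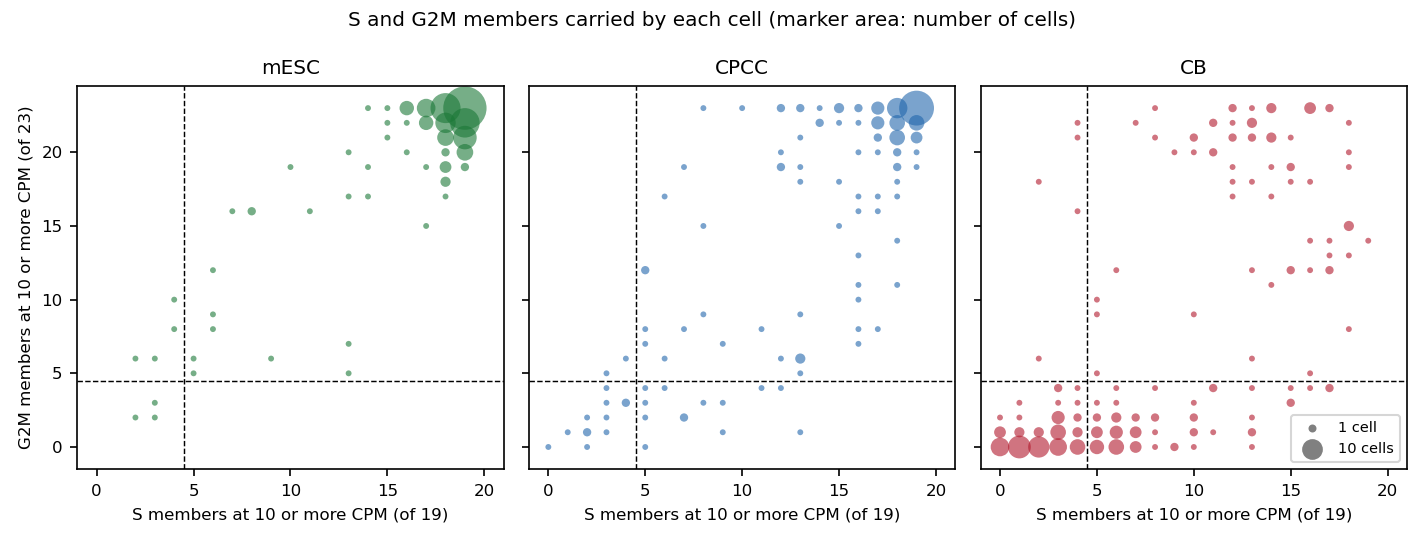
Number of S members (horizontal) and G2M members (vertical) at 10 or more CPM in each cell, with marker area proportional to the number of cells and dashed lines at the limits for positive cells. In CB, the lower right field holds 67 cells that carry S members only, a field with 0 cells in mESC and 13 in CPCC.

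Across all cells with at least 100000 counts, pairs of G2M members varied together most in CB and pairs of S members most in CPCC. The median Spearman correlation between pairs of G2M members was 0.27 in 203 mESC cells, 0.65 in 169 CPCC cells and 0.70 in 219 CB cells. Pairs of S members had 0.29, 0.60 and 0.46, and pairs of an S and a G2M member 0.01, 0.39 and 0.38. Within the G2M-positive cells of that depth (203 in mESC, 147 in CPCC and 73 in CB), pairs of G2M members had 0.27, 0.52 and 0.47. There the value was thus higher in CPCC than in CB. Pairs of S members had 0.29, 0.50 and 0.34, and pairs of an S and a G2M member 0.01, 0.20 and -0.14. The G2M members chose these cells. The cells of a culture share pools and depth, so these values are a description.

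Within G2M-positive cells, the S members were still lower in CB than in mESC, by less than over all cells. The G2M members chose these cells, so their levels in them are a description. Their sum was 6117, 5127 and 5820 CPM in mESC, CPCC and CB, with a median log2 ratio of CB to mESC of -0.20. The S members were not used to choose the cells. The choice still left out the cells that carried the S group only, 67 in CB, 13 in CPCC and 0 in mESC. In the positive cells the S members summed to 5306 CPM, 3874 CPM and 3150 CPM in mESC, CPCC and CB. Their median log2 ratio of CB to mESC was -0.98, against -1.83 over all cells, with 9 of 19 at least 2-fold lower, while 13.4% of all genes were at least 2-fold lower in these cells. The CB pools gave 2118 CPM (20 cells), 3428 CPM (53 cells) and 2516 CPM (3 cells) for the S sum, all below the lowest mESC pool at 4928 CPM.

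Among S members, Ung, Mcm10, Mcm2 and Mcm3 had the lowest ratios in these cells, at -1.85, -1.69, -1.60 and -1.44, while Gins2 and Tyms were above 0, at 0.54 and 0.24. Among G2M members, Aurka and Bub1 had -1.16 and -1.0, and 8 lay above 0. Mki67 was the highest at 2.01: it had 423 CPM in positive CB cells and 104 CPM in positive mESC cells. The positive cells of the CB pools had 598 CPM (20 cells), 374 CPM (53 cells) and 557 CPM (3 cells) of Mki67. Those of the mESC pools had 101, 99.4 and 115 CPM. Mki67 is among the genes that chose these cells, so these levels are a description. Cenpe, Kif11 and Cenpf followed at 0.91, 0.87 and 0.69. Top2a had 498 CPM in positive CB cells and 395 CPM in those of mESC, a log2 ratio of 0.34.

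**Figure D4:**
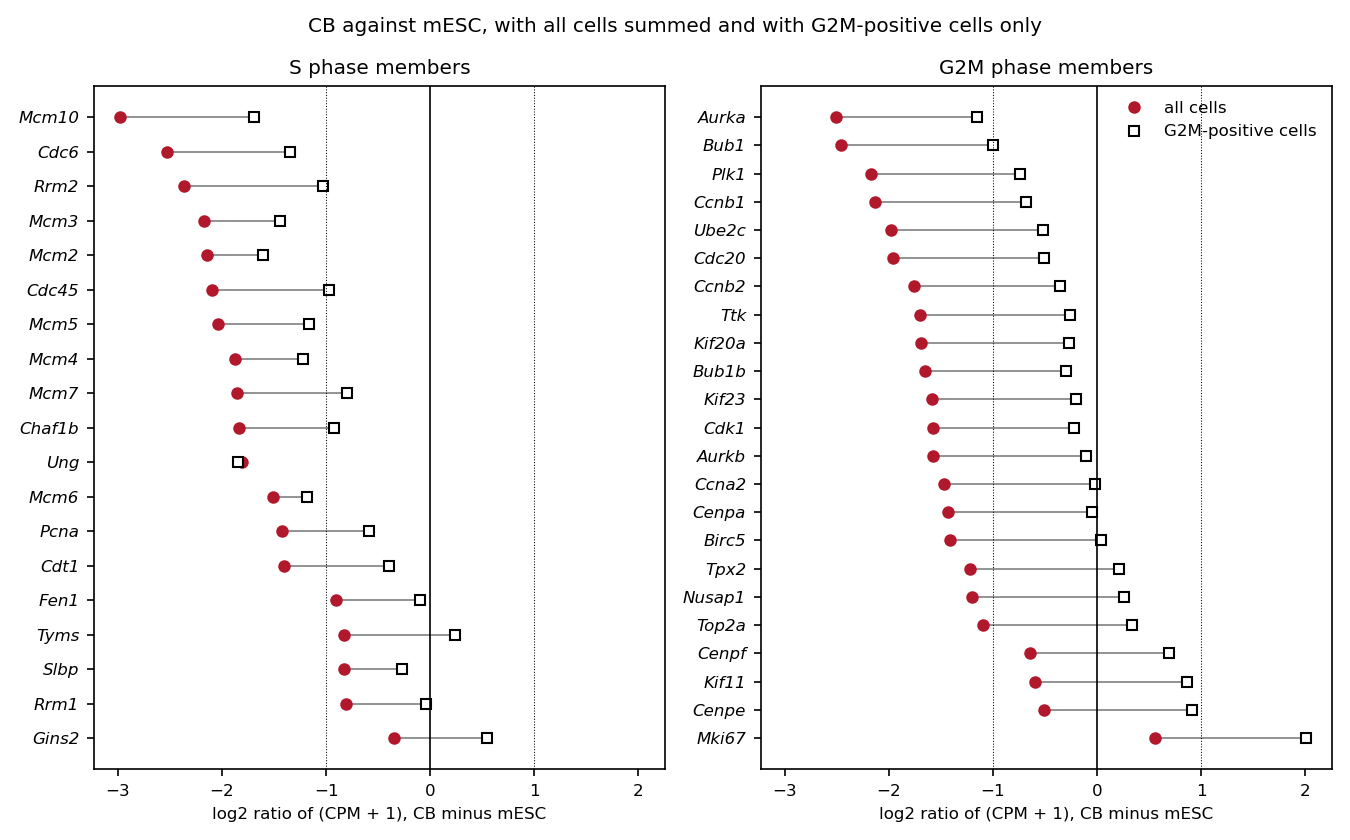
Log2 ratio of (CPM + 1) of CB to mESC for each member, with all cells summed (filled circles) and with G2M-positive cells only (open squares). Dotted lines mark 2-fold. The squares of G2M members lie around 0, with Mki67 at 2.01 and Aurka at -1.16, and most squares of S members stay below 0.

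Cells were then split into Pou5f1-positive cells (at least 10 CPM), Col1a2-high cells (at least 100 CPM and not Pou5f1-positive) and other cells. No cell of mESC or CPCC was both Pou5f1-positive and at that Col1a2 level. Pou5f1 was not listed in the CB table, so CB cells were split by Col1a2 alone. In CPCC, all 96 Pou5f1-positive cells were G2M-positive (exact 95% interval 96.2 to 100%), 62 in pool 1 and 34 in pool 2. Of the Col1a2-high CPCC cells, 25 of 32 were (78.1%, 60.0 to 90.7%), and of the other CPCC cells 29 of 47 (61.7%, 46.4 to 75.5%). In pool 1 these were 8 of 9 Col1a2-high and 7 of 8 other cells, and in pool 2 17 of 23 and 22 of 39. The lower shares of both classes thus came mainly from pool 2. In mESC, 198 of 199 Pou5f1-positive cells were G2M-positive. The pools of CPCC differed in makeup, as 62 of the 79 cells of pool 1 and 34 of the 96 cells of pool 2 were Pou5f1-positive.

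The members were highest in the Pou5f1-positive cells of CPCC. The G2M members summed to 6585 CPM in Pou5f1-positive, 2612 CPM in Col1a2-high and 2071 CPM in other cells, and the S members to 4859, 1748 and 2123 CPM. In Col1a2-high cells, 16 of 19 S and 17 of 23 G2M members were at least 2-fold lower than in Pou5f1-positive cells, against 25.5% of all genes. In the other cells the counts were 14 and 18, against 23.5% of all genes. Either pool alone gave medians below -1 for both groups, from -2.18 to -1.03. Ccnb1 stood at 1097 CPM in Pou5f1-positive cells, above its 712 CPM in mESC, and at 235 and 204 CPM in Col1a2-high and other cells. Rrm1 did not follow, with 270, 341 and 251 CPM.

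In CB, 23 of 117 Col1a2-high cells (19.7%, 12.9 to 28.0%) and 53 of 115 other cells (46.1%, 36.8 to 55.6%) were G2M-positive. The direction held in pools 2 and 3 and was the opposite in pool 1. Pool 1 had 15 of 48 Col1a2-high and 5 of 21 other cells positive, pool 2 had 7 of 14 and 46 of 64, and pool 3 had 1 of 55 and 2 of 30. With all pools, 12 of 23 G2M members were at least 2-fold lower in Col1a2-high than in other cells, with a median log2 ratio of -1.0 and 16.9% of all genes. The median was 1.82 in pool 1, where 19 members were at least 2-fold higher against 28.2% of all genes, -0.60 in pool 2 and -1.88 in pool 3. S members had medians of -0.97 with all pools and of -0.62, 0.38 and -0.32 in the pools. Pool and Col1a2 class cannot be told apart in the pooled CB values, since 64 of the 115 other cells came from pool 2 and 55 of the 117 Col1a2-high cells from pool 3.

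**Figure D5:**
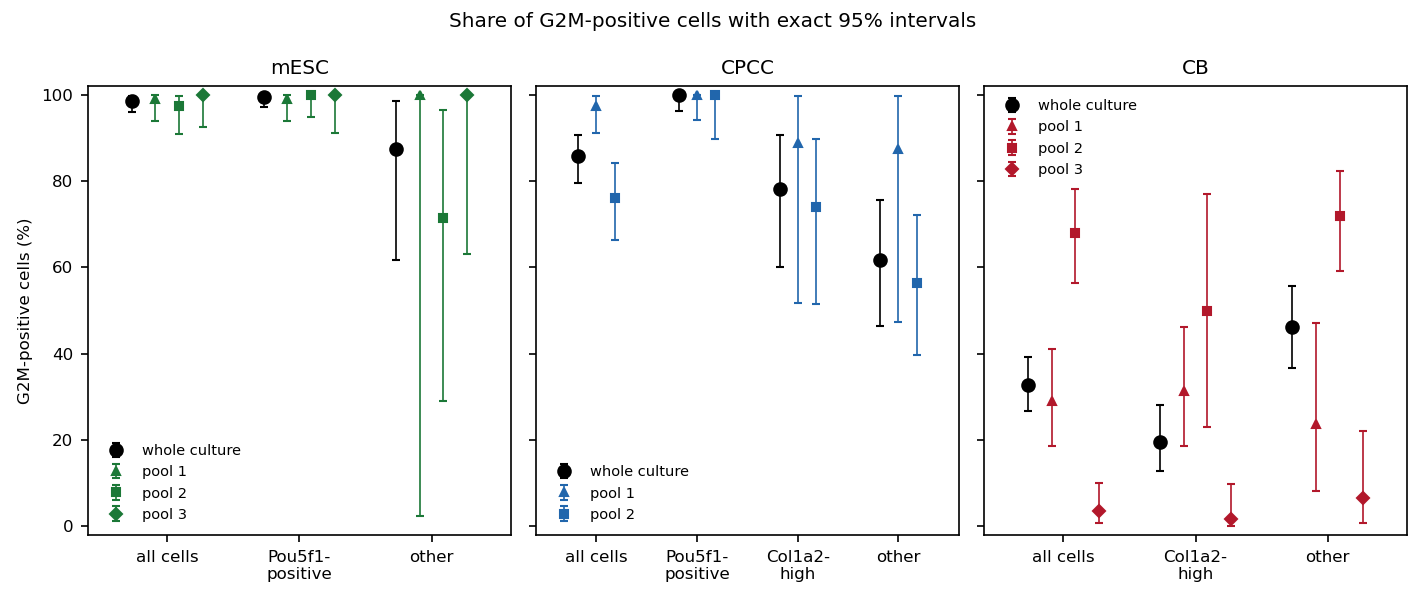
Share of G2M-positive cells in percent by culture and cell class, with exact 95% intervals, for the whole culture (black circles) and each pool. Pou5f1-positive cells lie at or near 100% in mESC and CPCC, and the CB pools lie apart in each class, from 1.82% to 71.9%.

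By marker lists, 30 of the 126 CB cells with the fibroblast list were G2M-positive (23.8%, 16.7 to 32.2%), as were 30 of 85 with the epithelial list (35.3%), 15 of 60 with the smooth muscle list (25%), 15 of 28 with the endothelial list (53.6%) and 10 of 18 with the cardiomyocyte list (55.6%, 30.8 to 78.5%). Of these 18 cells, 14 came from pool 2, where 9 were positive. Within pool 2 the shares were 81.2% for the fibroblast list, 75% for smooth muscle, 57.7% for endothelial, 75.8% for epithelial and 64.3% for cardiomyocyte. These shares differed more between pools than between lists, as the fibroblast list gave 29.6% in pool 1 and 1.79% in pool 3, and the epithelial list 23.5% and 2.86%. In CPCC, 16 of 22 cells with the macrophage list were positive (72.7%), all 22 from pool 2, where 76.0% of all cells were. The other CPCC lists gave 77.5% for fibroblast, 84.2% for endothelial, 84.8% for smooth muscle and 98.2% for epithelial. The pluripotent list gave 99.0% and the cardiomyocyte list 100% of 11 cells.

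Most other genes of the cycle on the further lists were also lower in CB. Of 30 further S phase genes, 23 were at least 2-fold lower in CB than in mESC and none higher, with a median log2 ratio of -1.43. Orc1, the largest subunit of the origin recognition complex, had -3.63 (92.0 CPM in mESC and 6.52 CPM in CB), with -6.02 without CB pool 2 and -2.91 without CB pool 3. Usp1 and Rad51ap1, which act in DNA repair, had -0.33 and -0.57, and 0.05 and -0.05 without CB pool 3. Of 32 further G2M phase genes, 20 were at least 2-fold lower and none higher, with a median of -1.28. Gtse1 had -2.57 and Cdca3 -2.22 (-3.32 without CB pool 2 and -1.5 without CB pool 3), while Hjurp, the chaperone of Cenpa, and Tmpo, a protein of the nuclear envelope, lay above 0 at 0.36 and 0.47. Of all genes, 14.0% were at least 2-fold lower.

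The transcription factors of the cycle did not move as a group. Of 20, 2 were at least 2-fold lower in CB than in mESC and 2 at least 2-fold higher, both below the shares of all genes (14.0% and 30.8%). Mybl2, which encodes B-Myb, had 229, 118 and 16.4 CPM in mESC, CPCC and CB, a log2 ratio of -3.72 and below that of every member. Its ratio was -5.74 without CB pool 2 and -3.03 without CB pool 3. E2f1 had -1.26, and -0.81 without CB pool 3. The pocket proteins Rb1 and Rbl2, which hold E2F factors in check, had 1.88 and 2.40, from 4.99 and 4.03 CPM in mESC to 21 and 25.6 CPM in CB. The CB pools of Rb1 (23.4, 24.2 and 17.0 CPM) lay above its mESC pools (2.36, 9.06 and 2.41 CPM). Those of Rbl2 (24.7, 7.34 and 42.7 CPM) overlapped its mESC pools (1.01, 3.55 and 7.89 CPM), and its ratio was 1.47 without CB pool 3. Foxm1, named here after its values were seen, stood at 18.8, 27.1 and 18.8 CPM in mESC, CPCC and CB, a log2 ratio of -0.01 that was -1.08 without CB pool 2 and 0.66 without CB pool 3. In CB, Foxm1 followed the G2M members across cells: it had 48.4 CPM in G2M-positive and 2.27 CPM in G2M-negative cells.

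Among brakes and switches of the cycle, 7 of 25 tested were at least 2-fold lower in CB than in mESC and 5 at least 2-fold higher, against 14.0% and 30.8% of all genes. Ccnd2, a cyclin of G1, had 0.558, 302 and 422 CPM in mESC, CPCC and CB, a log2 ratio of 8.09. The CDK inhibitor Cdkn1c rose to 34.4 CPM in CB against 0.296 CPM in mESC, a log2 ratio of 4.77 that was 3.78 without CB pool 3 and 5.36 without CB pool 2. Ccne1, the cyclin of S phase entry, had -2.76, with -3.97 without CB pool 2 and -2.13 without CB pool 3, and the checkpoint kinase Chek2 -2.29. The CDK inhibitor Cdkn1a (p21) had 209, 346 and 247 CPM in mESC, CPCC and CB.

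Within CPCC, 13 of the 26 brakes and switches were at least 2-fold lower in G2M-negative than in G2M-positive cells and 4 at least 2-fold higher, against 27.6% and 15.7% of all genes, so the higher count was near that share. The 4 were the CDK inhibitors Cdkn2b and Cdkn1a, the ubiquitin ligase Mdm2 and the cyclin Ccng1, with log2 ratios of 2.73, 2.12, 2.06 and 1.18. Cdkn1a had 1002 CPM in the 25 negative and 229 CPM in the 150 positive cells, and it and Mdm2 are given in full after their values were seen. Both pools of CPCC showed the Cdkn1a difference, with 1367 CPM in the 2 negative cells of pool 1 and 969 CPM in the 23 of pool 2, against 229 and 230 CPM in positive cells. In CB the direction for Cdkn1a differed between pools, with 245 and 299 CPM in positive and negative cells of pool 1, 45.9 and 66.1 CPM in pool 2, and 774 and 392 CPM in pool 3, which had 3 positive cells. Mdm2 was higher in the negative cells of each CB pool, at 107 CPM against 97.5 CPM, 131 CPM against 74.7 CPM and 75.4 CPM against 31.7 CPM. In negative CPCC cells the macrophage list was also higher, at 6401 CPM against 2019 CPM, and the fibroblast list at 3306 CPM against 640 CPM. So were the endothelial (623 against 72.4 CPM), smooth muscle (8947 against 5582 CPM) and cardiomyocyte lists (204 against 175 CPM). The pluripotent list had 71.4 CPM against 3992 CPM and the epithelial list 101 against 1398 CPM. Pool cannot be told apart from these differences, as 23 of the 25 negative cells came from pool 2. The macrophage list ran from 16.9 to 5178 CPM across the CPCC pools. The part of the cell types of these lists in the Cdkn1a difference was not tested.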

How the data were processed

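Per the labels and the study's methods, single cells were captured on the Fluidigm C1 system, full-length cDNA was amplified from polyadenylated RNA without molecular identifiers, and the authors aligned the reads of each cell with STAR 2.7 in Partek Flow to GRCm38 (mm10) with Ensembl genes. The deposited CPCC table held whole counts per gene and cell. The deposited mESC and CB tables held estimated counts, many of them not whole, with no scaling, and were rounded for thinning, size factors and counting intervals. How reads were assigned to genes, and whether by strand, is not given in the sources used here. Each table listed its own genes (22439, 23371 and 24229), so ratios were limited to genes that both tables hold. In the CPCC table, 208 rows without a gene and 23 symbols turned into dates, with 0.139% of counts, were left out, and 2 columns that match no sample were not used.

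The culture named in each table gave its sample. The cells of a sample or pool were summed and scaled to CPM of the summed gene counts. Ratios were log2 of (CPM + 1), which understates changes of low genes, for genes at 1 CPM or more in either sample, and a 2-fold limit was used because 1 sample per culture allows no test. Positive cells, classes and marker lists used the limits given in the text. Shares carry exact Clopper-Pearson and sums exact Poisson intervals at 95%, which cover counting error only, since reads are not independent molecules. No cell was removed and no doublet caller was run. Members were matched by symbol, and gene coordinates and exon lengths came from GENCODE M21 on GRCm38. The alternatives were TMM factors (edgeR 4.0.16), DESeq2 1.42.0 size factors, the same weight for every cell, pseudocounts of 0.1 and 10 CPM, cells of 100000 or more counts, totals without mitochondrial and the 20 most abundant genes, no filter on low values, other limits for positive cells and classes, and each pool left out. Scripts ran in R 4.3.3 and Python 3.11.15 and were tested on simulated data. Values in full were given for 15 members named by rule and for the 3 of each phase with the largest and the 3 with the smallest fall in CB, and of each further list for the 2 genes with the highest and the 2 with the lowest ratio. Of the genes this rule names, 1 is not reported here. The members, the lists and the limits were chosen with earlier results of these data known.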

Additional observations from a re-analysis of the deposited data

How the results depend on the processing

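With 1 sample in each group, no difference between mESC, CPCC and CB has a replicate check, and the library pools of a sample are not replicates. No paired analysis was possible because the labels give the 3 groups no shared replicate numbers and no between-group test was run. Of the values for counts and shares, 126 stayed within 1.5 times the count or within the exact 95% interval of the share and 43 moved. Under the 8 scalings and filters all 336 CB to mESC ratios of single members kept their sign and moved by less than the SD of their ratios between pools (0.44 to 2.06), a wide limit, the largest moves being Ung from -1.80 to -1.07 and Mcm10 from -2.98 to -2.34 with a pseudocount of 10 and Ung to -2.46 with equal weights. The cause of each move was not tested. The median log2 ratio of all genes between CB and mESC was 0.29 in CPM, 0.13 after TMM and 0.07 after DESeq2 size factors. Leaving out 1 pool at a time, the S members at least 2-fold lower ranged from 0 (without CPCC pool 2) to 13 (without CPCC pool 1) in CPCC against mESC, from 12 to 19 in CB against mESC and from 2 (without CB pool 3 or CPCC pool 1) to 18 (without CB pool 2) in CB against CPCC. For the G2M members these ranges were 0 (without CPCC pool 2 or mESC pool 2 or 3) to 9 (without CPCC pool 1), 10 (without CB pool 3) to 22 and 5 (without CB pool 3) to 20 (without CB pool 2). In an alternative chosen after seeing the data, leaving out 1 pool changed the sign of the ratio in 4 of 42 members for CB against mESC (Gins2, Cenpe and Kif11 without CB pool 3, Mki67 without CB pool 2), in 11 for CPCC against mESC and in 13 for CB against CPCC, each less than 2-fold with all pools. Of the shares of G2M-positive cells, that of mESC ranged from 98.2% to 99.3%, that of CPCC from 76.0% to 97.5% and that of CB from 14.9% (without pool 2) to 49.7% (without pool 3). The Pou5f1-positive cells ranged from 99.2% to 100% in mESC, the Col1a2-high cells from 73.9% to 88.9% in CPCC and from 11.6% (without pool 1) to 35.5% (without pool 3) in CB, and the other cells from 56.4% to 87.5% (without pool 2) in CPCC and from 13.7% (without pool 2) to 60.0% (without pool 3) in CB. With a pseudocount of 10, 2 S members and 0 G2M members were at least 2-fold lower in CPCC than in mESC, and weighting all cells equally gave 0 G2M members. That weighting turned the CPCC to mESC ratios of Mki67, Ccnb1 and Cdc20 above 0, and TMM, DESeq2 size factors and that weighting turned the CB to CPCC ratio of Cenpf below 0. DESeq2 size factors gave 13 S members at least 2-fold lower in CB than in CPCC. With 3 or more genes asked of a cell, the share was 92.0% in CPCC, 41.4% in CB, 100% in the Pou5f1-positive cells of mESC, 76.6% in the other cells of CPCC and 56.5% in the other cells of CB, and with 8 or more genes it was 95.3% in mESC and 79.4% in CPCC. A limit of 50 CPM gave 78.3% in CPCC, and 1 CPM gave 90.9% in CPCC and 39.7% in CB. Both thinning and a floor of 100000 counts gave 100% in mESC and in its Pou5f1-positive cells. Class limits of 100 CPM for Pou5f1 and 1000 CPM for Col1a2 gave 50% in the Col1a2-high cells and 79.8% in the other cells of CPCC.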
